A study of Mus musculus with 12 samples.

Results

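Glycogen is the glucose store of heart muscle, and 9 genes of its synthesis and breakdown are described here across 4 groups of mouse cardiomyocyte arrays. The genes are Phkg1, Phka1 and Phkb, which encode subunits of phosphorylase kinase, Pygm and Pygb, which encode glycogen phosphorylases, and Gys1, Gbe1, Ppp1r3c and Pgm1, which act in synthesis, in branching, in its control and in the handling of the released sugar phosphate. They are 9 of the 19057 genes that the platform annotation names, and their probes were those whose gene symbol equals one of the 9. The genes were chosen by function and from earlier results of these data, in which Phkg1 was already known to lie among the genes most reduced by pressure overload, so differences between TAC and sham are given as descriptions. They were represented by 17 probes, of which 10 were kept as detected and 7 were not. This left 8 genes measured, while Gbe1, which encodes the branching enzyme, was detected on no array by either of its probes.

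Isolated left ventricular cardiomyocytes came from male C57Bl6/J mice, with an age of 8 weeks in the labels. All animals were infected as pups of 10 days with AAV9, an adeno-associated virus that reaches heart muscle, so the control cells carry a virus as well. The virus carried a scrambled short hairpin RNA (shControl) or hairpin #1 against Uhrf1 (shUhrf1), so that the Uhrf1 groups rest on 1 hairpin sequence. The operation came 2 months later, either transverse aortic constriction (TAC), which narrows the aorta and loads the left ventricle with pressure, or a sham procedure, and cells were taken after 1 week. These times add up to more than the labelled age, and the labels do not say when that age applies. The 4 groups were sham shControl, TAC shControl, sham shUhrf1 and TAC shUhrf1, with 3 arrays each. Whether each array is its own animal is not given in the labels, so errors and p-values measure only how the arrays vary, possibly for technical reasons.

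Between 12309 and 14908 probes were detected per array. Counts ran from 12309 to 12979 in sham shControl and from 13375 to 14544 in TAC shControl. With shUhrf1 they ran from 13113 to 13792 in sham and from 14440 to 14908 after TAC. Median deposited intensity was 111 and 112 on array 3 of TAC shControl and TAC shUhrf1, and 91 to 103 on the other arrays. The part of these shifts in the results was not tested. Uhrf1, the target of the hairpin, had 1 probe detected on no array and 1 detected on no sham array, on all 3 TAC shControl arrays and on 2 of 3 TAC shUhrf1 arrays. By this second probe alone, Uhrf1 after TAC was 1.35 ± 0.30 (SE) lower on the log2 scale with shUhrf1 than with shControl (adjusted p = 0.0355 in limma's fit). It read 6.14, 7.11 and 6.89 in TAC shControl and 4.68, 5.34 and 6.06 in TAC shUhrf1. Without the TAC shControl arrays, where it was highest, the probe would not have met the detection filter, so this p-value is a description only. The undetected probe read 4.43 in TAC shUhrf1 against 4.49 in TAC shControl. Of 11 listed cardiomyocyte markers 10 were measured, Tnnt2 being the exception, and their mean lay between 13.8 and 14.1 (log2) on every array. This mean ran from 13.83 to 13.93 in sham shControl and from 13.88 to 13.95 in TAC shControl. With shUhrf1 it ran from 14.05 to 14.09 in sham, above every array of the other groups, and from 13.82 to 13.97 after TAC. Some markers of other cells were higher after TAC. Of 11 measured fibroblast markers 11 passed as higher after TAC in shControl and 5 in shUhrf1 (adjusted p under 0.05 in limma's fit). Of 11 endothelial markers 9 and 1 passed as higher, of 9 macrophage markers 3 and 3, and of 4 smooth muscle and pericyte markers 2 and 0. Over all 8746 genes 1001 passed as higher in shControl and 346 in shUhrf1. In shUhrf1 the median differences were 1.23 (fibroblast), 1.14 (macrophage), 0.07 (endothelial) and 0.03 (smooth muscle and pericyte). The summed fibroblast intensity ran from 2463 to 4088 in sham shControl, 9496 to 13254 in TAC shControl, 1879 to 6000 in sham shUhrf1 and 6491 to 10903 in TAC shUhrf1. The endothelial sums in the same order ran from 2045 to 2619, 4813 to 9495, 1290 to 4161 and 2354 to 3595. The macrophage sums ran from 2533 to 3326, 4837 to 6328, 1187 to 3218 and 3750 to 6384, and those of smooth muscle and pericytes from 3167 to 6857, 3678 to 6613, 2157 to 4423 and 3033 to 4453. Col1a1, Col1a2, Col3a1, Tcf21, Tie1 and Pdgfrb were detected on no sham shControl array. In such bulk samples, fewer cells of a type and less RNA per cell cannot be told apart.

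Glycogen is broken down when glycogen phosphorylase splits off glucose units, and phosphorylase is switched on by phosphorylase kinase, a complex of a catalytic gamma subunit, regulatory alpha and beta subunits, and calmodulin, which makes it responsive to calcium. Beta-adrenergic signalling through protein kinase A and the calcium of each contraction both act on this kinase in muscle. Synthesis runs in the other direction through glycogen synthase and the branching enzyme, and protein phosphatase 1, held on the glycogen particle by targeting subunits such as Ppp1r3c, switches the synthase on and phosphorylase off.

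The results turn on Phkg1, which encodes the catalytic subunit of the muscle kinase. The window around its annotated start is therefore shown beside that of Phkg2, which encodes the other catalytic subunit, known from liver and testis. Each window runs from 250 bases before the start to 50 after it, in RefSeq's table for GRCm38.p6, and is written 5′ to 3′ on the gene's own strand. The Phkg1 window is chr5:129879039-129879338 on the minus strand and the Phkg2 window is chr7:127573098-127573397 on the plus strand. Capitals mark CANNTG, the E-box bound by basic helix-loop-helix factors, which reads the same on both strands, and overlapping matches were counted separately.
Phkg1: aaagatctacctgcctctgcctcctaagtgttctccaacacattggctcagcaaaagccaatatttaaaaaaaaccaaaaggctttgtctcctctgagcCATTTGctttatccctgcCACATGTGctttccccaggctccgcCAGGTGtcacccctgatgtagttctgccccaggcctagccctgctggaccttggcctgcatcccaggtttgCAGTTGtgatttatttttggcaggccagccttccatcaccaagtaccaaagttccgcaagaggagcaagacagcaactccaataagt
Phkg2: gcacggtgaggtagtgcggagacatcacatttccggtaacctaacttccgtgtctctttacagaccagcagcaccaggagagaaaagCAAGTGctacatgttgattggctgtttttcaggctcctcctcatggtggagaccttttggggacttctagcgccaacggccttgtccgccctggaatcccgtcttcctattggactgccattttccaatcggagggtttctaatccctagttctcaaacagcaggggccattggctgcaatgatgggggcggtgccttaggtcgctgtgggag
The Phkg1 window held 5 matches, among them CACATGTG, where 2 overlap, and 2.1% of the 32851 RefSeq windows held as many or more. The Phkg2 window held 1 match, as did the Phkb window, and 72.3% of all windows held at least 1. The windows of Pygm held 3, those of Phka1, Gys1, Gbe1 and Ppp1r3c 2 each, and those of Pygb and Pgm1 0. CG dinucleotides, the substrate of the DNA methylation that UHRF1 helps to maintain, numbered 2 in the Phkg1 window, 4 in that of Pygm and 11 in that of Phkg2, against a median of 7 over all windows. Of all windows, 23.3% held 2 CG or fewer. The other members held between 14 and 38 CG, with 38 in Phkb. The Phkg1 window was looked at because of the Phkg1 result, so its shares of all windows are descriptions and not tests. These counts describe letters only, and neither binding nor methylation was measured.

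Phkg1 fell after TAC with either hairpin. On the log2 scale of normalized intensity it read 8.23, 8.01 and 8.33 on the sham shControl arrays and 6.18, 5.84 and 5.41 on the TAC shControl arrays. With shUhrf1 it read 7.55, 7.90 and 7.43 in sham and 5.65, 6.98 and 6.33 after TAC. Every TAC array lay below every sham array, and the TAC shUhrf1 arrays were the most scattered. The means were 8.19 ± 0.16 and 5.81 ± 0.38 for shControl and 7.63 ± 0.24 and 6.32 ± 0.66 for shUhrf1 (SD, n = 3 arrays each).

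**Figure D1:**
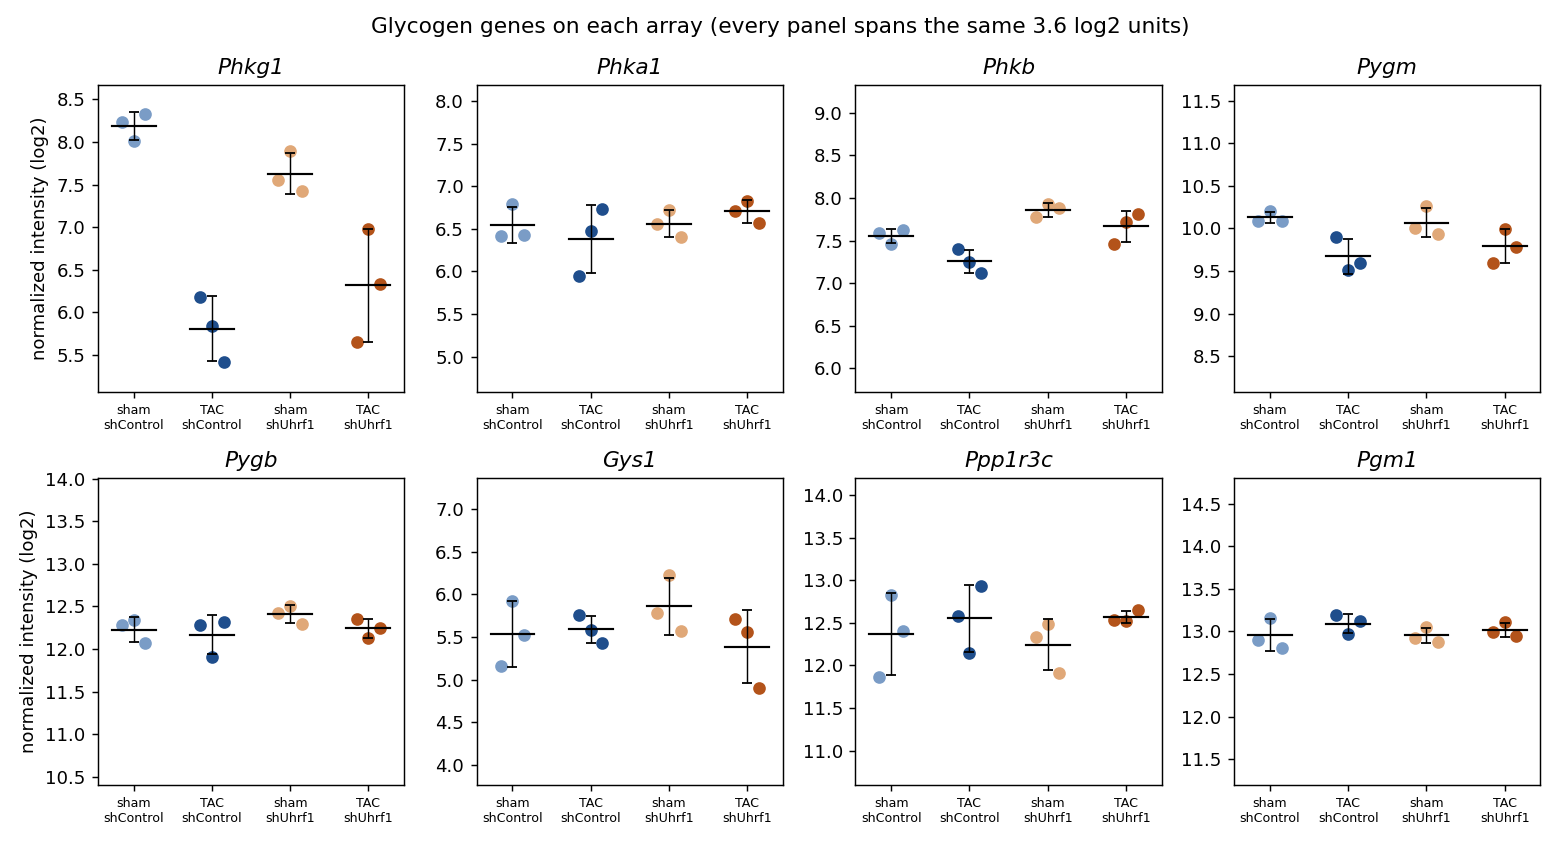
Normalized intensity (log2) of the 8 measured genes on each of the 12 arrays, by group. Points are arrays, horizontal lines group means and bars 1 SD, and every panel spans the same range. The Phkg1 points separate TAC from sham with both hairpins, between 5.41 and 6.98 after TAC against 7.43 to 8.33 in sham, while the groups of most other genes overlap.

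The Phkg1 difference between TAC and sham was -2.38 ± 0.28 (SE, 95% interval -2.99 to -1.77) in shControl, a level 5.20-fold lower. It was -1.31 ± 0.28 (-1.92 to -0.69) in shUhrf1, or 2.48-fold lower. Among the 8746 genes tested, ordered from the lowest difference, Phkg1 stood 2nd in shControl and 4th in shUhrf1. These ranks restate what the genes were chosen on. Its deposited intensities were low, 278 to 336 in sham shControl and 119 to 154 in TAC shControl, although the probe was detected on all 12 arrays. The size of its difference moved with the background correction, and the cause was not tested. Without background correction it was -1.43 and -0.77 in shControl and shUhrf1, and in the authors' deposited value table, which is compressed at low intensity, -0.92 and -0.48. It was lower after TAC under all 23 alternative settings with each hairpin, and it passed the threshold (adjusted p under 0.05) under 23 of 23 in shControl and 18 of 23 in shUhrf1. In shUhrf1 the call was lost without sham shUhrf1 array 2 (-1.17), without TAC shUhrf1 array 1 (-0.97) or without array 3 (-1.31), with no filter on dim probes, and when only those 2 groups were fitted.

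**Figure D2:**
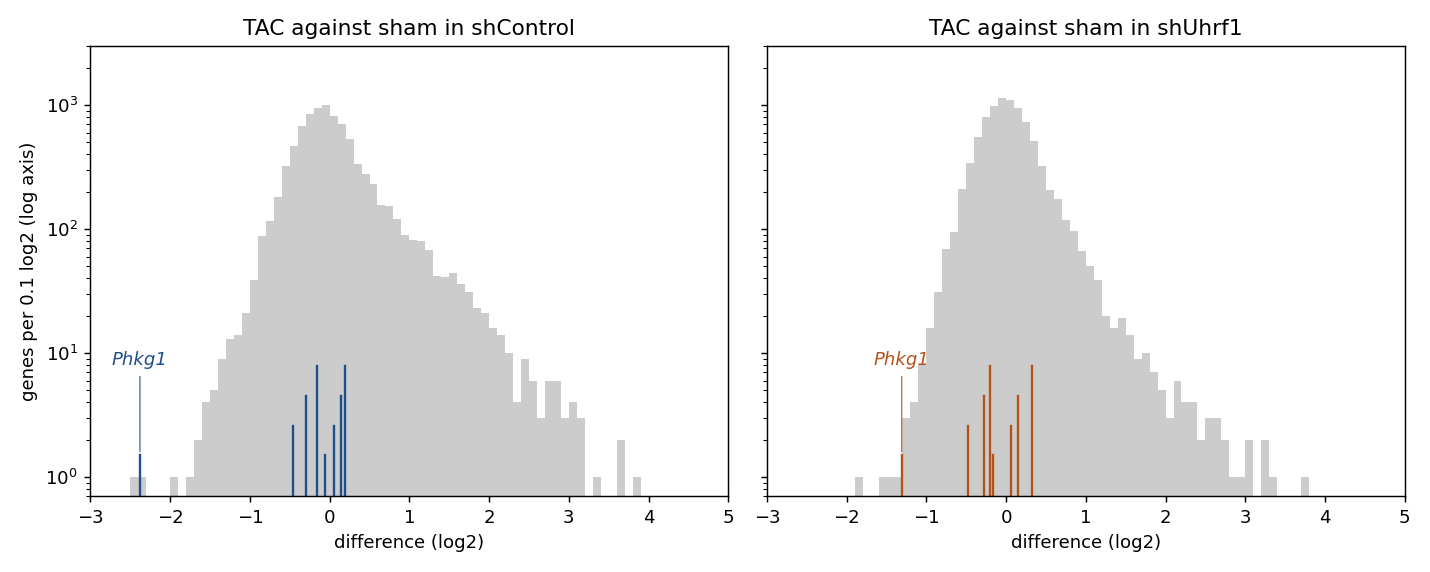
Distribution of TAC minus sham differences (log2) over all 8746 genes tested, in shControl on the left and in shUhrf1 on the right, with the number of genes per bin on a log axis. Coloured ticks mark the 8 glycogen genes, and their heights carry no value. Phkg1 lies in the lower tail at -2.38 and -1.31, and the other 7 lie between -0.48 and 0.33.

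Of the 8 measured genes 1 passed after TAC in shControl and 1 in shUhrf1, in both cases Phkg1 and lower. Over all genes 18.9% passed in shControl, 7.47% as lower, and 5.55% in shUhrf1, 1.59% as lower. An unadjusted p under 0.05 was reached by 3 of the 8 in shControl, beside 33.8% of all genes, and by 1 in shUhrf1, beside 22.5%. The 3 TAC arrays did not overlap the 3 sham arrays for 3 of the 8 genes in shControl (Phkg1, Phkb and Pygm), against 38.4% of all genes, and for 2 of the 8 in shUhrf1 (Phkg1 and Ppp1r3c), against 28.8%. The median difference of the 8 genes was -0.11 in shControl and -0.18 in shUhrf1, beside -0.04 and 0.01 over all genes. Without Phkg1 the medians of the remaining 7 were -0.06 and -0.17. Because Phkg1 was known in these comparisons when the genes were chosen, nothing is read from these counts.

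Within groups, Phkg1 was set beside the marker means of each array. In 4 of 4 groups the array with the highest Phkg1 value was the one with the lowest mean of the fibroblast, of the endothelial and of the macrophage markers, since the same array was lowest for the 3 lists. For each of these lists 1.6% of all genes showed this in all 4 groups. Pygm, Phkb and Pgm1 showed it in 3 groups, Phka1 and Gys1 in 2, and Pygb and Ppp1r3c in 1. For the smooth muscle and pericyte markers, and for the cardiomyocyte markers, Phkg1 showed it in 2 of 4 groups. The array farthest from its group was sham shUhrf1 array 2, with mean marker values of 5.91 (fibroblast), 6.57 (endothelial) and 6.53 (macrophage) against 7.07 to 7.10, 7.86 to 7.99 and 7.81 on the other arrays of its group, and a Phkg1 value of 7.90 against 7.43 and 7.55. Without array 2 of both shUhrf1 groups the Phkg1 difference in shUhrf1 was -1.50. The part of other cell types in the Phkg1 result was not tested.

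Neither regulatory subunit of the kinase passed in a TAC comparison. Phka1, the alpha subunit of the muscle kinase, had values of 6.42, 6.79 and 6.43 in sham shControl and 5.95, 6.47 and 6.74 in TAC shControl. With shUhrf1 the values were 6.56, 6.72 and 6.40 in sham and 6.71, 6.83 and 6.57 after TAC. All 4 groups overlapped, and the TAC differences were -0.16 ± 0.19 in shControl and 0.15 ± 0.19 in shUhrf1. Their 95% intervals, -0.58 to 0.25 and -0.27 to 0.56, hold no change of the size seen for Phkg1. The deposited intensities of Phka1 were low, 142 to 161 in sham shControl and 143 to 247 in TAC shControl.

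Phkb encodes the beta subunit, shared by the kinases of muscle and liver. It read 7.59, 7.46 and 7.62 in sham shControl and 7.40, 7.25 and 7.12 in TAC shControl, groups that did not overlap. In shUhrf1 it read 7.77, 7.93 and 7.88 in sham and 7.46, 7.72 and 7.82 after TAC, where 1 array reached into the sham range. The TAC differences were -0.30 ± 0.14 and -0.20 ± 0.14, and neither passed. Under scaling to the median of all probes, which set the median of all genes at 0.19 in shControl and 0.45 in shUhrf1, both were above 0 (0.01 and 0.33). Relative to that median they were -0.18 and -0.13, and Phkg1 was -2.24 and -1.28. The 2 dim probes of Phka1 and the 2 of Phkb were detected on no array.

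Pygm encodes muscle glycogen phosphorylase, the substrate of the kinase. It read 10.09, 10.21 and 10.09 in sham shControl and 9.90, 9.51 and 9.60 in TAC shControl, so that every TAC array lay below every sham array. In shUhrf1 the values were 10.01, 10.26 and 9.93 in sham and 9.60, 9.996 and 9.79 after TAC, with overlap. The TAC differences were -0.46 ± 0.15 (95% interval -0.79 to -0.13) in shControl and -0.27 ± 0.15 (-0.60 to 0.06) in shUhrf1. Neither passed, but the shControl difference was negative under all 23 alternative settings and passed under 6 of them. In shUhrf1 it was negative under 22 and 0.23 under scaling to the median of all probes.

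Pygb, the phosphorylase named for brain and also found in heart, had sham shControl values of 12.28, 12.34 and 12.06 and TAC shControl values of 12.28, 11.90 and 12.32. The shUhrf1 values were 12.42, 12.51 and 12.30 in sham and 12.35, 12.13 and 12.24 after TAC. The groups overlapped in both comparisons. The TAC differences were -0.06 ± 0.15 and -0.17 ± 0.15, and the second was 0.24 under scaling to the median of all probes.

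Gys1, muscle glycogen synthase, was close to background. Its brighter probe was detected on 2 of 3 sham shControl arrays, all TAC shControl and sham shUhrf1 arrays and 2 of 3 TAC shUhrf1 arrays, and its dimmest probe on no array. The brighter probe had the values 5.16, 5.92 and 5.52 in sham shControl, 5.75, 5.58 and 5.43 in TAC shControl, 5.79, 6.23 and 5.57 in sham shUhrf1 and 5.71, 5.55 and 4.90 in TAC shUhrf1. The TAC differences were 0.05 ± 0.24 and -0.48 ± 0.24 with this probe. They were -0.24 ± 0.29 and -0.25 ± 0.29 with the second kept probe, so the probes disagreed in sign in shControl, within their errors.

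Ppp1r3c, which brings protein phosphatase 1 to glycogen, had an SD among arrays of 0.48 (sham) and 0.39 (TAC) with shControl, and of 0.30 and 0.068 with shUhrf1. It read 11.87, 12.83 and 12.41 in sham shControl and 12.58, 12.15 and 12.93 in TAC shControl. With shUhrf1 it read 12.33, 12.49 and 11.91 in sham and 12.54, 12.52 and 12.65 after TAC, where the groups did not overlap. The TAC differences were 0.19 ± 0.25 and 0.33 ± 0.25, and neither passed. The first was -0.16 under scaling to the median of the probes detected on all arrays.

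Pgm1, phosphoglucomutase, which converts the sugar phosphate released from glycogen for use in glycolysis, had an SD of at most 0.18 within a group. It read 12.90, 13.16 and 12.81 in sham shControl, 13.19, 12.97 and 13.12 in TAC shControl, 12.93, 13.05 and 12.88 in sham shUhrf1 and 12.99, 13.11 and 12.95 in TAC shUhrf1. The TAC differences were 0.14 ± 0.13 and 0.06 ± 0.13, and 0.10 ± 0.15 and 0.05 ± 0.15 by its second probe. All groups overlapped. Under scaling to the median of the probes detected on all arrays the first probe gave -0.23 and -0.09.

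The hairpin comparisons set shUhrf1 beside shControl in sham cells and in cells after TAC. Neither Uhrf1 probe was detected on a sham array, so a lower Uhrf1 level in sham cells was not shown. By the second Uhrf1 probe the sham difference was -0.34 ± 0.30 (adjusted p = 0.655 in limma's fit). The hairpin comparisons share arrays with the TAC comparisons, so their values are given side by side and not as separate evidence. In sham cells 0 of the 8 genes passed in limma's fit, beside 0.0457% of all genes, and after TAC 0 of 8 passed, beside 2.89%. An unadjusted p under 0.05 was reached by 1 of the 8 in each, Phkb, beside 13.2% of all genes in sham and 19.3% after TAC. The groups did not overlap for 2 of the 8 in sham (Phkg1 and Phkb), against 20.6% of all genes, and for 1 of the 8 after TAC (Phkb), against 23.9%. The median difference of the 8 was 0.004 in sham and 0.10 after TAC, beside -0.003 and 0.01 over all genes.

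**Figure D3:**
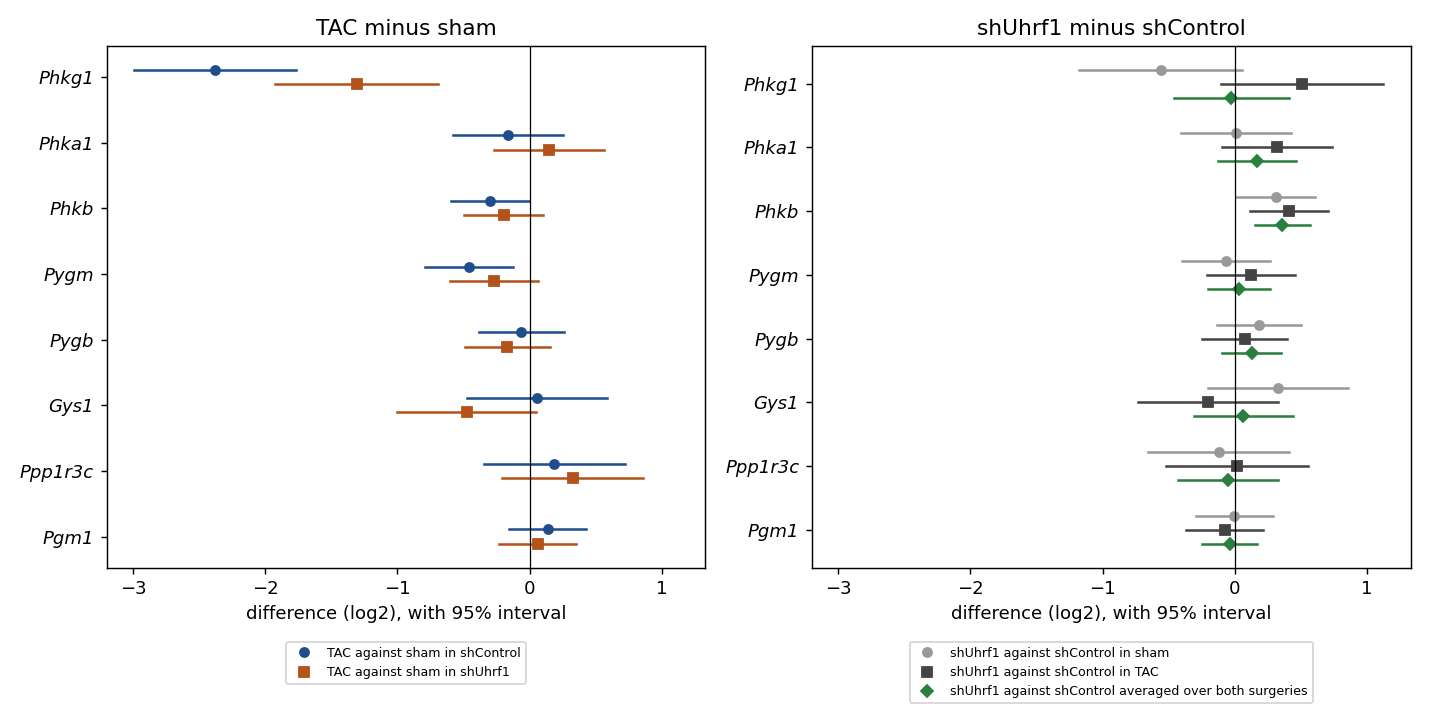
Differences (log2) of the 8 measured genes with 95% intervals, TAC minus sham on the left and shUhrf1 minus shControl on the right, from 3 arrays a group. On the left the intervals of Phkg1 lie below 0 with both hairpins. On the right the Phkb intervals lie above 0 in sham, after TAC and averaged, and none of these differences passed after adjustment over all probes.

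Phkg1 was 0.56 lower with shUhrf1 than with shControl in sham cells (-0.56 ± 0.28, 95% interval -1.18 to 0.05, adjusted p = 0.398), and there the 3 arrays of each group did not overlap. After TAC it was 0.51 ± 0.28 higher (-0.10 to 1.12, adjusted p = 0.352), with overlap. The difference between its TAC responses was 1.07 ± 0.40 (0.20 to 1.94), a smaller response with shUhrf1, and it did not pass (adjusted p = 0.423). This value is formed from the TAC differences in which Phkg1 was already known when the genes were chosen. Its interval and p-values are therefore descriptions only. Over the alternative settings this difference ran from 0.44 to 1.41 and passed under 0 of 22. In the test of that difference 0 of the 8 genes passed, beside 0% of all genes, while an unadjusted p under 0.05 was reached by 1 of the 8, Phkg1, and by 866 of all genes. Averaged over both surgeries Phkg1 differed by -0.03 ± 0.20 (-0.46 to 0.41).

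Phkb was higher in value with shUhrf1 in sham cells, by 0.31 ± 0.14 (0.01 to 0.60, adjusted p = 0.335), and after TAC, by 0.41 ± 0.14 (0.11 to 0.71, adjusted p = 0.124). In each surgery all 3 shUhrf1 arrays lay above all 3 shControl arrays. Averaged over both surgeries the difference was 0.36 ± 0.10 (0.15 to 0.57) with an adjusted p of 0.0517, just outside the threshold. It was positive under 22 of 22 alternative settings, between 0.17 and 0.54, and passed under 7 of them, with adjusted p between 0.0262 and 0.175. In the average 0 of the 8 genes passed, beside 4.38% of all genes, and 1 had an unadjusted p under 0.05, Phkb, beside 21.8%. In the same average 2 of 10 cardiomyocyte markers passed as higher with shUhrf1 and 1 of 11 endothelial markers as lower. After TAC 3 of 11 endothelial markers passed as lower with shUhrf1. In sham 0 markers of any list passed. The part of these shifts in the hairpin values was not tested.

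None of the remaining 6 genes passed in a hairpin comparison. In sham cells Gys1 differed by 0.33 ± 0.24, Pygb by 0.18 ± 0.15 and Ppp1r3c by -0.12 ± 0.25, and Phka1, Pygm and Pgm1 by 0.01 ± 0.19, -0.06 ± 0.15 and 0.00 ± 0.13. After TAC Phka1 differed by 0.32 ± 0.19 and Gys1 by -0.20 ± 0.24. The other 4 lay between -0.08 and 0.12. A miss of the threshold does not show equal levels. Apart from Phkg1, the intervals of the members reached from -0.66 to 0.86 in sham and from -0.73 to 0.74 after TAC.

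**Figure D4:**
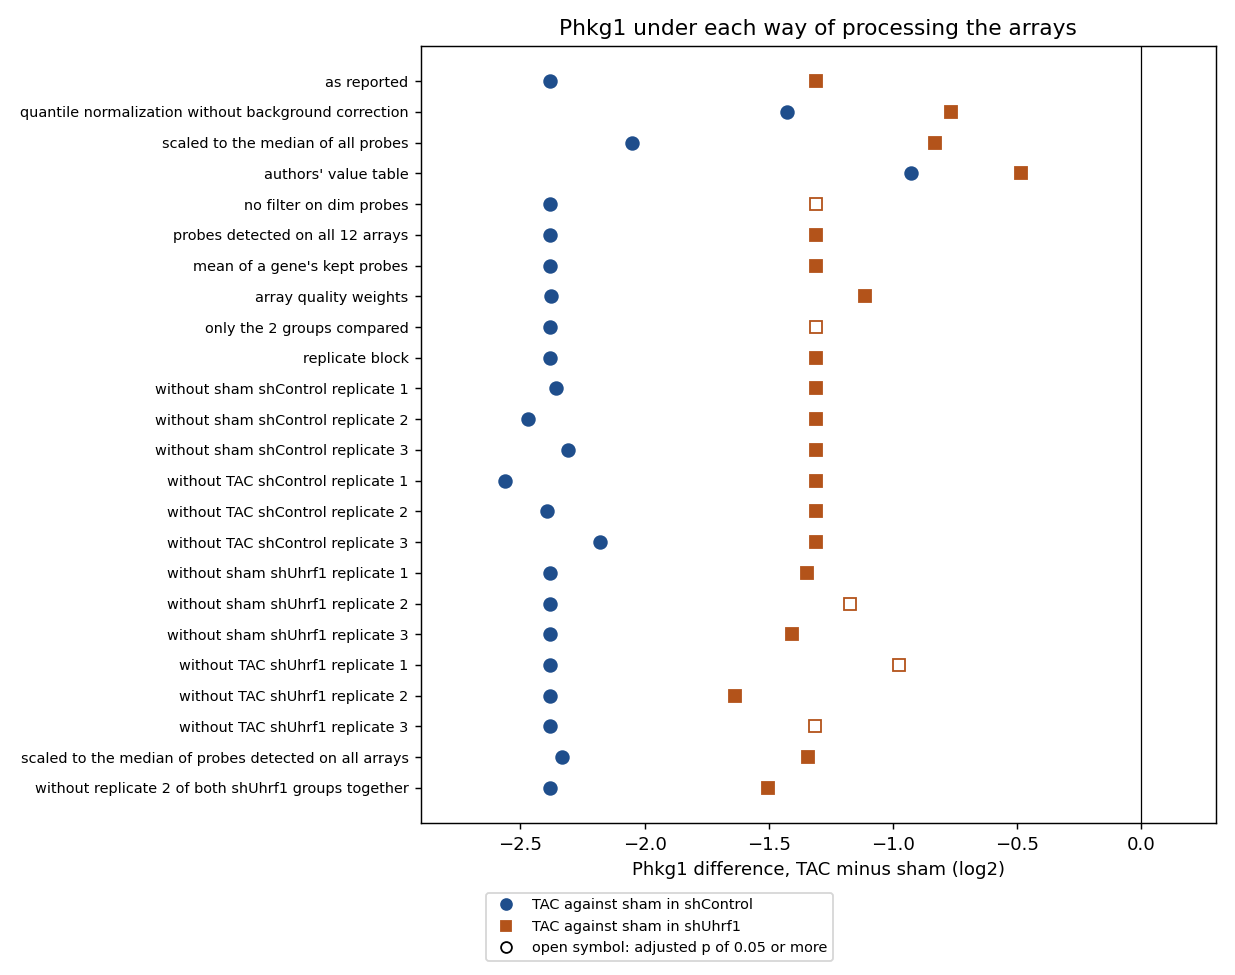
Phkg1 difference between TAC and sham (log2) under each way of processing the arrays, with 1 line per setting, circles for shControl and squares for shUhrf1. Filled symbols passed the threshold and open ones did not. The shControl values run from -2.56 to -0.92, all filled, and the shUhrf1 values from -1.64 to -0.48, with 5 open.

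The members did not all follow Phkg1 over the 12 arrays. Pygm had a Pearson correlation of 0.91 with Phkg1 and Phkb one of 0.59, and both had 0.78 once group means were removed. The other 5 lay between -0.38 and 0.20. These are descriptions over arrays that share groups, background correction and scale. Outside the list, the genes most like Phkg1 were Gzmm, a granzyme (0.968), Pxmp2, a peroxisomal membrane protein (0.964), P2ry1, a purinergic receptor (0.961), Mrpl28, a mitochondrial ribosomal protein (0.961), and Nit2, an amidase (0.960). Gzmm was -1.54 ± 0.23 after TAC in shControl and -0.78 ± 0.23 in shUhrf1, and Mrpl28 was -0.29 ± 0.12 and -0.26 ± 0.12.

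The paralog Phkg2 had TAC differences close to 0. It read 6.43, 6.51 and 6.59 in sham shControl and 6.52, 6.49 and 6.53 in TAC shControl. With shUhrf1 it read 6.41, 6.81 and 6.65 in sham and 6.92, 6.51 and 6.43 after TAC. The groups overlapped, and the TAC differences were 0.00 ± 0.15 (-0.33 to 0.34) in shControl and 0.00 ± 0.15 (-0.34 to 0.33) in shUhrf1, intervals that do not reach the Phkg1 values. Phkg2 was dim, however. Its sham shControl mean was 6.51, beside 6.55 for Phka1 and 4.33 for the dimmest Phka1 probe, detected on no array. A fall of the size seen for Phkg1 in shControl therefore had little room to show. Phka2, the alpha subunit known from liver, differed by -0.13 ± 0.16 and -0.31 ± 0.16. Pygl, the liver phosphorylase, differed by 0.09 ± 0.20 in shControl and by 0.63 ± 0.20 in shUhrf1, where the groups did not overlap and the adjusted p was 0.084. Pgm5, a relative of Pgm1 that sits at muscle adhesion sites, differed by -0.53 ± 0.18 in shControl, without overlap (adjusted p = 0.0556), and by 0.14 ± 0.18 in shUhrf1. Of the paralogs of Ppp1r3c, Ppp1r3d differed by -0.07 ± 0.21 and -0.25 ± 0.21, Ppp1r3f by -0.55 ± 0.21 and -0.11 ± 0.21, and Ppp1r3g by 0.13 ± 0.29 and 0.78 ± 0.29, and none of these passed.

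Of 36 further genes of glycogen metabolism, listed by function, 27 were measured. After TAC in shControl 2 of the 27 passed as lower and 0 as higher, and 7 had an unadjusted p under 0.05. Over all genes 7.47% passed as lower and 33.8% had such a p, and nothing particular to these genes is read from the counts. Both genes that passed act on the pathway from outside the kinase. Ppp1r3b, a targeting subunit of protein phosphatase 1 known from liver, read 7.94, 8.00 and 7.77 in sham shControl and 7.41, 7.37 and 6.88 in TAC shControl, a difference of -0.68 ± 0.22 (adjusted p = 0.046). It passed under 10 of 23 alternatives, with adjusted p between 0.0177 and 0.333, and its dimmer probe gave -0.36 ± 0.25. Prkag1, a regulatory subunit of the energy sensor AMP-activated kinase, read 10.25, 9.69 and 9.89 against 9.37, 9.55 and 9.19, a difference of -0.57 ± 0.16 (adjusted p = 0.0281). It passed under 17 of 23 alternatives, with adjusted p between 0.0114 and 0.211. Both calls were lost under scaling to the median of all probes (-0.37 and -0.44), and leaving out array 1 or 3 of either shControl group also ended both, as array 2 of either did for Ppp1r3b.

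After TAC in shUhrf1 0 of the 27 passed in limma's fit, beside 5.55% of all genes, and 6 had an unadjusted p under 0.05, beside 22.5%. The lowest adjusted p belonged to Pygl. With the hairpins compared in sham cells and in the difference between TAC responses, 0 of 27 passed, beside 0.0457% and 0% of all genes, with 2 below an unadjusted p of 0.05 in each, beside 13.2% and 9.9%. After TAC 1 of 27 passed as higher with shUhrf1, and 1 in the average over both surgeries. Over all genes 2.89% and 4.38% passed, in either direction. Both were Ppp1cc, a catalytic subunit of protein phosphatase 1. It read 6.36, 6.33 and 6.85 in TAC shControl and 7.06, 7.44 and 7.72 in TAC shUhrf1, a difference of 0.89 ± 0.19 (adjusted p = 0.0299) that passed under 15 of 23 alternatives, with differences between 0.34 and 1.13 and adjusted p between 0.0167 and 0.304. It did not pass with both probes averaged (0.36), with dim probes kept, with only those 2 groups fitted, without array 2 of both shUhrf1 groups, or when array 1 or 2 of TAC shControl, or array 2 or 3 of TAC shUhrf1, was left out. Its dimmer probe gave -0.18 ± 0.29 after TAC. In sham it read 6.33, 6.55 and 6.33 against 7.05, 7.31 and 7.31, 0.82 ± 0.19 (adjusted p = 0.106). The average difference was 0.86 ± 0.13 (adjusted p = 0.00594) and passed under 21 of 22 alternatives, but the dimmer probe gave -0.08 ± 0.20, and the mean of both probes did not pass (0.39, adjusted p = 0.1001). The median difference of the 27 genes lay between -0.11 and 0.06 in all 6 comparisons.

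**Figure D5:**
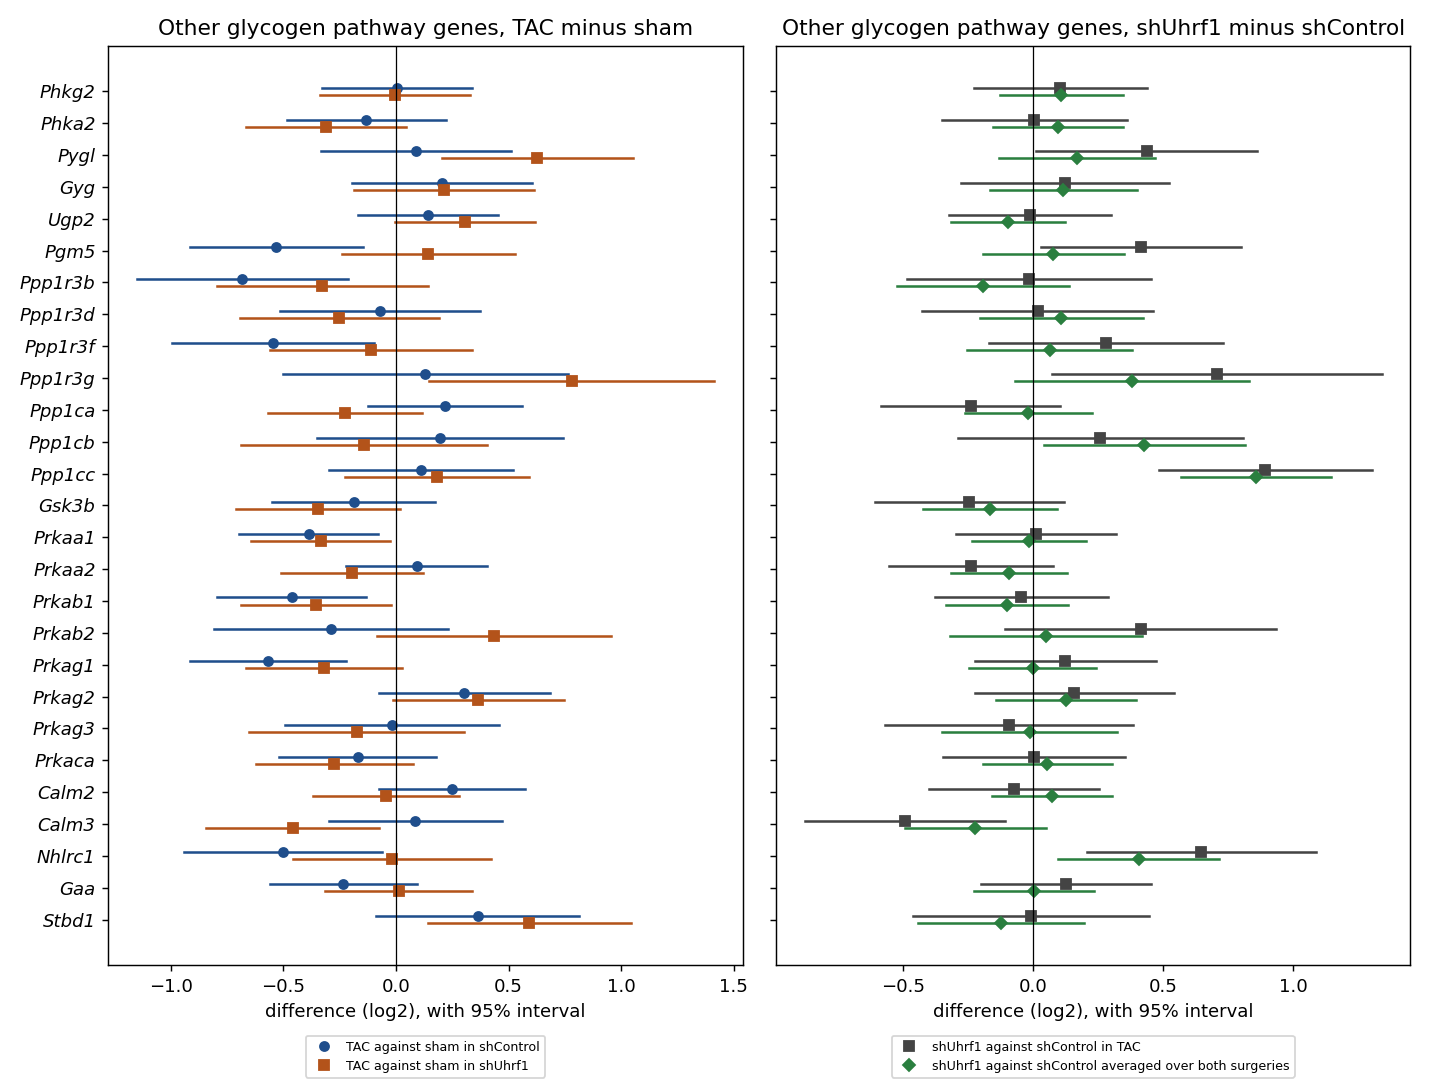
Differences (log2) of the 27 other measured genes of glycogen metabolism with 95% intervals, TAC minus sham on the left and shUhrf1 minus shControl on the right, from 3 arrays a group. Most intervals include 0, Phkg2 sits at 0.00 with both hairpins, and Ppp1cc stands at 0.89 and 0.86 on the right.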

How the data were processed

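Biotin-labelled cRNA of 12 samples was measured on Illumina bead arrays, as the labels' protocols state, and groups were taken from the sample titles. The deposited table gives a linear intensity and, as its headers name it, a detection p-value for each probe on each array. The authors' deposited value table, for which the submitters' processing notes name lumi, appears to hold log2 values (every array has a median of 7.50) and was used as an alternative. Probe names are those of the platform annotation in GEO, which gave 1 symbol to 34885 of 45281 probes, several to 18 and none used here to 10378.

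Intensities were background-corrected from the detection p-values and quantile-normalized with limma's neqc (limma 3.58.1, R 4.3.3, offset 16). A probe was kept where its detection p was under 0.01 on 3 or more arrays, 15118 probes and 8746 genes, and a gene was its probe with the highest mean. All 12 arrays were fitted with 1 mean per group (lmFit, eBayes), and p-values were Benjamini-Hochberg adjusted over all kept probes, with a threshold of 0.05. The fit was tested on simulated normalized values with independent noise and a set shift in TAC shControl only. Background correction, normalization and variation shared by the probes of an array were not part of that test. Differences are on the log2 scale, with ± for the SE where no SD is named. The number of arrays limits the precision.

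All 9 genes and every measured paralog are named, with other pathway genes that passed (up to 6 per comparison) and the 5 genes most correlated with Phkg1. The genes, lists and markers were chosen with earlier results of these data known. Promoter windows are RefSeq's. Alternatives changed the background correction, scaling, filter, probe rule, weights, arrays and replicate block.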

Additional observations from a re-analysis of the deposited data

How the results depend on the processing

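Of 1082 values of single genes under alternatives, 1000 kept their direction and their side of the threshold, 64 that had not passed turned sign, 5 lost the threshold, 13 gained it, and 0 that had passed turned sign. After TAC in shControl 2 genes, Phkg1 and Pygm, passed as lower in place of 1 without background correction and in the authors' value table. The same 2 passed with probes detected on all 12 arrays and with a gene's kept probes averaged. They also did so with scaling to the median of the probes detected on all arrays. With 1 array left out the count was between 1 and 2 (2 without TAC shControl array 1). In shUhrf1 the count was 0 in place of 1 when dim probes were all kept and when only those 2 groups were fitted, and between 0 and 1 with 1 array left out. The hairpin average gave 1 gene, Phkb, in place of 0 without background correction, in the authors' value table, with no filter, with probes detected on all 12 arrays, with kept probes averaged and with array quality weights, and between 0 and 1 with 1 array left out (1 without TAC shUhrf1 array 1). The hairpin comparisons in sham and after TAC and the difference between TAC responses gave 0 genes under every alternative. Some of these settings also changed the set of probes adjusted over or the number of arrays fitted. The cause of the changed counts was not tested. Scaling to the median of the probes detected on all arrays and the omission of array 2 of both shUhrf1 groups were chosen after seeing the data.

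Scaling to the median of all probes moved the share of higher calls over all genes, from 1001 of 1654 to 1196 of 1268 in shControl and from 346 of 485 to 2002 of 2015 in shUhrf1. With 1 array left out the calls over all genes ran from 874 to 1684 in shControl, 113 to 513 in shUhrf1, 9 to 384 for the hairpin after TAC, 1 to 4 for the hairpin in sham, 184 to 436 for its average, and 0 to 102 for the difference between TAC responses.

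Over 18 combinations of arrays with the same replicate number the deviations correlated between -0.16 and 0.25. In the 4 that were above 0.1, each included a TAC shUhrf1 array. Differently numbered arrays were not set beside them, so these values cannot decide whether the numbers pair the arrays. With the replicate number as a block the counts were 1 and 1 for TAC in shControl and shUhrf1 and 0 in the hairpin comparisons, with an adjusted p of 0.0765 for Phkb in the average. Among the members low intensity limits Phkg1, Phka1 and Gys1 most, and Gbe1 has no measured level. It also limits the paralog Phkg2.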
